A study of Homo sapiens and Mus musculus with 13 samples.

Results

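The lines with KDM5C knockdown were compared directly with the lines with TRIM11 knockdown, in 4 of the 13 RNA-Seq libraries of the series. All 4 come from MDA-MB-231, a human triple-negative breast cancer cell line. Each line was infected with a lentivirus that carries Cas9 and a guide RNA and was selected with puromycin. KDM5C-KD1 and KDM5C-KD2 carry guides 1 and 2 to KDM5C, TRIM11-KD1 and TRIM11-KD2 carry guides 1 and 2 to TRIM11, and the study checked its knockdown lines by western blotting. The 3 other human libraries, 2 of double knockdown (DKD, with TRIM11 guide 1 or 2 plus KDM5C guide 2) and 1 Control with a guide to GFP, did not enter the comparison and were only placed beside it afterwards. The other 6 libraries are mouse tumors. Each of the 4 lines carries 1 guide and gave 1 library, so a difference between the groups is measured against the spread between guides. Expression was given as FPKM, in which the fragments of a gene are divided by its length and by the size of its library. Of 24523 gene symbols, the 11767 with a mean of at least 1 FPKM over the 4 libraries were analysed. A gene met the 2-fold rule when both lines of one knockdown were at least 2-fold above both lines of the other.

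KDM5C is an X-linked demethylase that removes methyl groups from lysine 4 of histone H3, a mark of active promoters when trimethylated and of enhancers when monomethylated. TRIM11 is a RING-type ubiquitin E3 ligase of the tripartite motif family, which marks target proteins for the proteasome. The study examined TRIM11 as a ligase for KDM5C, and the direct comparison asks which transcripts differ most between cells with guides to the demethylase and cells with guides to the ligase. RNA-Seq gives no protein level.

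The library of KDM5C-KD2 stood apart from the other 3. It differed at least 2-fold from KDM5C-KD1 in 646 genes (5.49% of those analysed), whereas TRIM11-KD1 and TRIM11-KD2 differed in 434 (3.69%). KDM5C-KD1 differed from the TRIM11-KD libraries in 322 and 466 genes, fewer than it differed from the other KDM5C-KD line, and KDM5C-KD2 differed from them in 1053 and 1059. The summed FPKM was between 494753 and 505176 in the 4 libraries, with medians between 12.3 and 12.5 over the genes analysed, and the FPKM carry no read numbers, so the depth is unknown. All 8 markers of a basal-like line, among them VIM, CD44 and EGFR, were above 1 FPKM in every library and summed to between 3525 and 4172. In every library 3 of 6 luminal breast markers were at or above 1 FPKM, with sums between 28.4 and 30.8. The 5 endothelial markers summed to at most 1.58 FPKM. Of 6 leukocyte markers, CD14 and CD68 were above 1 FPKM in every library, PTPRC was below it in every library, and the sums lay between 68.7 and 109.

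The targeted mRNAs were checked first. KDM5C (chromosome X, 53205465 to 53254604, hg19) was at 20.6 and 21.4 FPKM in KDM5C-KD1 and KDM5C-KD2 and at 29.8 and 28.4 in TRIM11-KD1 and TRIM11-KD2, beside 30.3 in Control. Both KDM5C-KD libraries were below both TRIM11-KD libraries, with a log2 difference of -0.45 (standard error 0.12, limma, adjusted p = 0.544). TRIM11 (chromosome 1, 228581374 to 228594536) was at 13.4 and 10.6 FPKM in TRIM11-KD1 and TRIM11-KD2, at 13.6 and 14.2 in the KDM5C-KD lines and at 12.6 in Control. The library labelled TRIM11-KD1 thus had no lower TRIM11 mRNA than Control, and its knockdown cannot be seen at the mRNA level. For TRIM11 the label rests on the study's western blots. The enzymes of H3K4 methylation were close between the groups. Of 20 methyltransferases, demethylases and their partners, KDM5C among them, none met the 2-fold or the 1.5-fold rule, and their log2 differences lay between -0.48 for KDM5B and 0.26.

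Few genes separated the knockdowns by the 2-fold rule. Both KDM5C-KD lines were at least 2-fold above both TRIM11-KD lines in 49 genes (0.416% of those analysed) and at least 2-fold below them in 31 (0.263%). Without a fold, the libraries did not overlap in 2708 genes higher in KDM5C-KD (23%) and in 2464 lower (20.9%). By a 1.5-fold rule, which asks for a ratio of means of at least 1.5 and an unadjusted limma p under 0.05, 376 genes (3.2%) were higher in KDM5C-KD and 270 (2.29%) lower. These became 239 and 136 without KDM5C-KD2, and 785 and 796 without KDM5C-KD1. Unadjusted p was under 0.05 in 1065 genes (9.05%), 598 of them higher in KDM5C-KD (5.08%) and 467 lower (3.97%), and 3 genes (0.0255%) passed after Benjamini-Hochberg adjustment. An exact permutation test of 2 lines against 2 cannot go below p = 0.333.

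**Figure D1:**
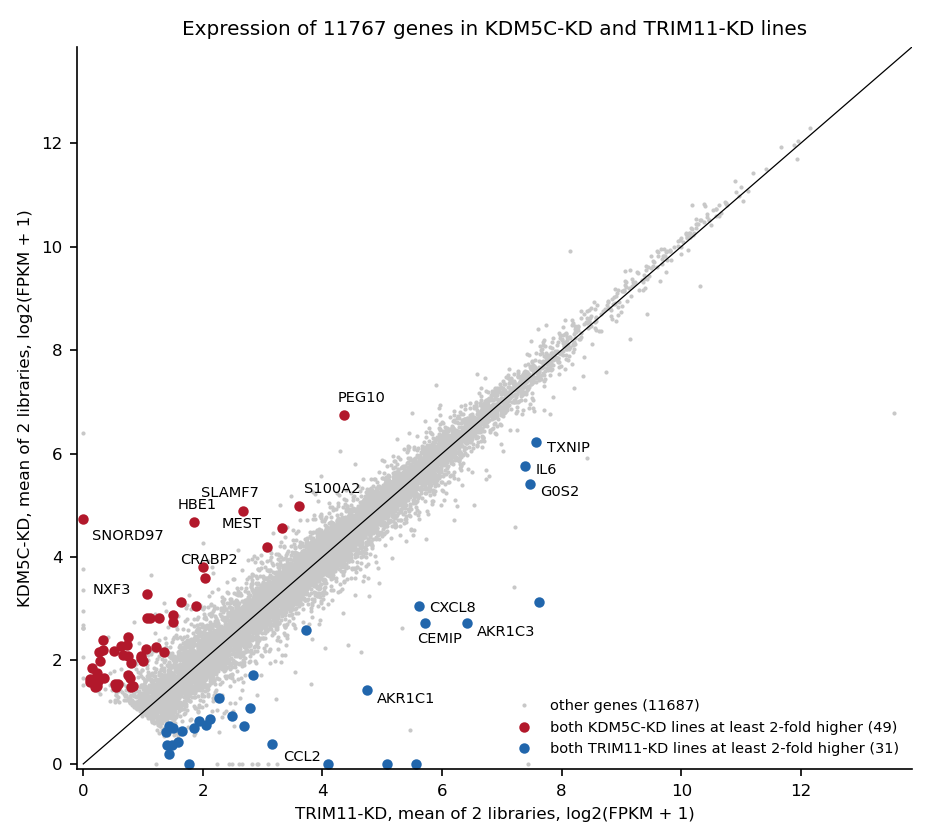
Mean log2(FPKM + 1) of the 2 KDM5C-KD libraries (vertical axis) against that of the 2 TRIM11-KD libraries (horizontal axis), 1 point per gene, with the line of equal levels. The 49 red genes were higher in both KDM5C-KD lines and the 31 blue genes in both TRIM11-KD lines, and most of both sets are weakly expressed.

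Most of the 2-fold genes were weakly expressed, and 37 of the 49 higher and 18 of the 31 lower genes had a mean under 5 FPKM. In 30 of the 49 and 19 of the 31 the mean of the lower group was under 1 FPKM, so these genes passed the filter only through the group in which they were high. KDM5C-KD2 also lay farther out than KDM5C-KD1 in 46 of the 49 higher and 25 of the 31 lower genes, and since the rule asks for both lines, the less extreme KDM5C-KD1 set the size at which a gene was named. Among genes of at least 5 FPKM, the weakest inside the rule were DDO, whose smallest ratio between a KDM5C-KD and a TRIM11-KD library was 2.01, and CEMIP on the other side, also at 2.01. Just outside lay NINJ2 at 1.91 and SERPINA1 at 1.98. Small nucleolar and other small RNAs made up 1 of the 49 and 6 of the 31.

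Among the genes higher in KDM5C-KD were PEG10 and MEST. PEG10, a retrotransposon-derived gene that is imprinted and read from the paternal copy (chromosome 7, 94285637 to 94299007), was at 64.4 and 176.7 FPKM in the KDM5C-KD lines and at 26.6 and 14.2 in the TRIM11-KD lines. Its log2 difference was 2.40 (standard error 0.52). SGCE, a paternally expressed neighbour whose annotated span overlaps that of PEG10, was at 35.1 and 56.4 against 29.4 and 20.6 FPKM and met the 1.5-fold rule. MEST, another paternally expressed imprinted gene on chromosome 7 (130126012 to 130146306), had little spread within the groups, with 22.1 and 23.2 FPKM against 9.26 and 8.75. Its log2 difference was 1.24 (standard error 0.13), and its adjusted p of 0.259 (limma) was the lowest of the 15 named genes higher in KDM5C-KD.

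SLAMF7, a surface receptor of the SLAM family known from lymphocytes, had the largest gap between the groups among the genes higher in KDM5C-KD once small RNAs were passed over, with 17.4 and 46.5 FPKM against 5.26 and 5.49. HBE1, the embryonic epsilon globin, was at 15.7 and 38.7 FPKM against 5.11 and 1.16. The span annotated for HBE1 in hg19 includes the olfactory receptor genes OR51B4 and OR51B5, and the libraries keep no strand, so these 3 cannot be fully separated. OR51B4 was at 1.39 and 4.45 FPKM against 0.0643 and 0.163. OR51B5, which met the 1.5-fold rule only, was at 1.91 and 14.3 against 1.01 and 0.604. All 3 were higher in both KDM5C-KD lines.

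Retinoic acid is carried to its nuclear receptors by CRABP2, which was at 8.88 and 13.7 FPKM in KDM5C-KD against 3.03 and 3.15. S100A2, a calcium-binding protein of epithelial cells, was at 27.4 and 34.4 against 12.5 and 10.1 FPKM. SEMA3E, a secreted semaphorin that signals through plexin D1, was at 3.62 and 9.88 against 1.39 and 1.44. PKP3, a plakophilin of desmosomes, was the 1 of the 15 named genes of this direction in which KDM5C-KD1 was the higher line, with 19.7 FPKM in KDM5C-KD1 and 15.4 in KDM5C-KD2 against 7.399 and 7.347 in TRIM11-KD. The other named genes of this direction were NXF3, an X-linked member of the RNA export factor family, PSG10P, a pregnancy-specific glycoprotein pseudogene, CT55, FAM49A, ZG16B and PPP1R1C. Their ratios of means ranged from 3.69 to 24.9, the highest being CT55, which is listed at 0 in TRIM11-KD2.

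**Figure D2:**
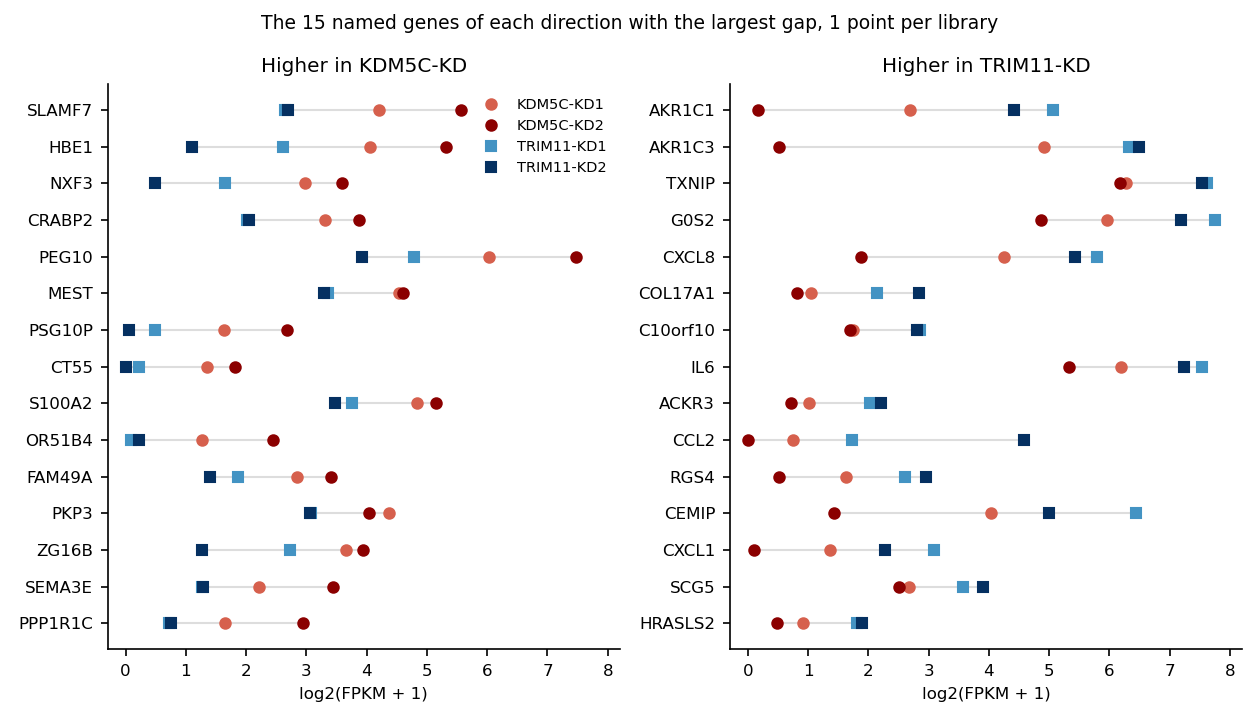
The 15 genes of each direction with the largest gap between the groups, with log2(FPKM + 1) on the horizontal axis and 1 point per library (circles KDM5C-KD, squares TRIM11-KD). No gene has an overlap between circles and squares, and KDM5C-KD2 is the outermost circle in all but PKP3.

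In the opposite direction a pair of neighbouring paralogs had the largest gaps once small RNAs were passed over. AKR1C1 and AKR1C3, aldo-keto reductases that reduce steroids and other carbonyl compounds, lie 52 kb apart on chromosome 10. AKR1C1 was at 5.42 and 0.123 FPKM in the KDM5C-KD lines and at 32.5 and 20.4 in the TRIM11-KD lines. AKR1C3 was at 29.2 and 0.435 FPKM against 78.9 and 89.4. The KDM5C-KD values of both genes are far apart, so their log2 differences of -3.32 and -3.69 had standard errors of 0.79 and 1.32. AKR1C2, a close copy of AKR1C1, was at 2.87 and 0.0659 FPKM against 7.73 and 2.69 and overlapped between the groups, and fragments could be split among these copies. Outside the AKR1C cluster, AKR1B1 (aldose reductase) was at 214 and 170 FPKM against 464 and 391, and AKR1B10 at 1.59 and 1.25 against 4.35 and 2.83. Of the 25 analysed genes of the list of aldo-keto reductases and NRF2 targets, 5 met the 1.5-fold rule as lower in KDM5C-KD (2.29% of all genes), 4 of them aldo-keto reductases, and none was higher. The well-known NRF2 targets NQO1, GCLM and TXNRD1 overlapped between the groups. The same number, 5, met the rule without KDM5C-KD2.

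TXNIP, a thioredoxin-binding protein that restrains glucose uptake, varied little within the groups. It was at 76.5 and 71.3 FPKM in KDM5C-KD against 194.9 and 184.9 in TRIM11-KD, a log2 difference of -1.35 (standard error 0.12). Its adjusted p of 0.117 (limma) was the lowest of the 30 named genes. G0S2, an inhibitor of the lipase that starts triglyceride breakdown, was at 61.6 and 28.1 FPKM against 214 and 145. CEMIP, which takes part in the breakdown of hyaluronan, was at 15.5 and 1.68 against 85.7 and 31.0. LAMB3, a laminin chain gene within 100 kb of G0S2, was at 65.2 and 38.3 FPKM against 136.1 and 82.3 and met the 1.5-fold rule. COL17A1, the transmembrane collagen of hemidesmosomes, was at 1.07 and 0.752 against 3.42 and 6.18. SCG5, RGS4, ACKR3, C10orf10 and HRASLS2 completed the named genes of this direction, each 2.47 to 4.69 times higher by the ratio of means.

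Inflammatory genes made up a second group of the genes higher in TRIM11-KD, with IL6, CXCL8, CXCL1 and CCL2 among the 31. IL6, a cytokine that signals through STAT3 (chromosome 7, 22765503 to 22771621, hg19), was at 72.5 and 39.3 FPKM in KDM5C-KD1 and KDM5C-KD2 and at 185 and 149.7 in TRIM11-KD1 and TRIM11-KD2. CXCL8, a chemokine that attracts neutrophils, was at 18.0 and 2.65 against 54.4 and 42.0. CXCL1, a second ligand of its receptor CXCR2, was at 1.56 and 0.0749 against 7.51 and 3.85. The log2 differences were -1.62 (standard error 0.30) for IL6, -2.55 (0.73) for CXCL8 and -1.95 (0.48) for CXCL1. CCL2, which attracts monocytes, had the widest spread, with 0.684 FPKM in KDM5C-KD1 and a listing at 0 in KDM5C-KD2 against 2.32 and 23.1 in the TRIM11-KD lines. CXCL2 was at 16.3 and 6.44 against 35.4 and 25.2 FPKM, and CXCL3 at 1.53 and 0.152 against 3.82 and 1.89. Neither met the 2-fold rule, since TRIM11-KD2 was too close to KDM5C-KD1. IL1A, at 0.779 and 0.213 against 2.14 and 0.808 FPKM, was below the filter of 1 FPKM. The study picked IL6, IL1A and the 4 CXC genes for measurement by quantitative PCR in such lines, so their direction here is no independent evidence.

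The promoters of IL6 and of 4 CXC genes were chosen for printing because each holds the NF-kB type motif GGNNTTTCC, searched on both strands. Not all secreted members do. Of the analysed chemokines, 4 of 6 with a RefSeq entry hold it (66.7%) and CCL26 and CCL28 do not. Of the interleukins and colony-stimulating factors, 3 of 7 hold it (42.9%), and IL1B, IL11, IL24 and CSF2 do not. CCL2 had no entry. The motif was found in 6.26% of all 27305 RefSeq promoters (300 bases each, 250 before and 50 after the start, GRCh38.p14) and in 6.69% of the 8851 promoters whose symbols matched a gene analysed. Each line gives the 150 bases before the start, 5′ to 3′ on the strand of the gene, with the motif in capitals.
IL6: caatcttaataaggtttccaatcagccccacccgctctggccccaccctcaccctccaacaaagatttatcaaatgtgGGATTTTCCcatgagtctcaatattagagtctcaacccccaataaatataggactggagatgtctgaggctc
CXCL8: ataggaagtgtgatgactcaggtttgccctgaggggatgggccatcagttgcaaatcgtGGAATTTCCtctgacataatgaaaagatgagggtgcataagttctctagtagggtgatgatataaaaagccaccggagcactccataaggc
CXCL1: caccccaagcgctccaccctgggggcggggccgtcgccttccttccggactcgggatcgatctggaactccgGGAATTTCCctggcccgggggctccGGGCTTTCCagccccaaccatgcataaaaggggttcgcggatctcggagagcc
CXCL2: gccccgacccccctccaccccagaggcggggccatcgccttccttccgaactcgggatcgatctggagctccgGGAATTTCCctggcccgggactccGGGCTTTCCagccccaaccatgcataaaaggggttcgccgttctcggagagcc
CXCL3: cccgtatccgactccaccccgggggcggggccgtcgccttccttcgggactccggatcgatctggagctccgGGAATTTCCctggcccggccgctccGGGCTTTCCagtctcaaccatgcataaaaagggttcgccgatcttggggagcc
These stretches are chr7:22727050-22727199 for IL6, chr4:73740419-73740568 for CXCL8, chr4:73869243-73869392 for CXCL1, chr4:74099196-74099345 for CXCL2 and chr4:74038690-74038839 for CXCL3 (GRCh38.p14). The motif begins 72 bases before the start in IL6 and 91 bases before it in CXCL8. CXCL1, CXCL2 and CXCL3, close paralogs, each hold a pair of copies, which begin 77 or 78 and 53 bases before the start. Of the 19 promoters matched to 2-fold genes higher in TRIM11-KD, 3 hold the motif (15.8%), and they are those of IL6, CXCL8 and CXCL1. On the other side it was found in 3 of 27 (11.1%), those of SNX10, BATF and GYPC. A match describes letters and is no evidence of binding.

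Read as a list, chemokines were lower in KDM5C-KD. Of 19 chemokine genes 10 were analysed, and 8 of these met the 1.5-fold rule as lower in KDM5C-KD (2.29% of all genes), namely CXCL1, CXCL2, CXCL3, CXCL8, CXCL16, CX3CL1, CCL2 and CCL5. Of these 8, CXCL1, CXCL3 and CCL2 passed the filter of 1 FPKM only through TRIM11-KD. CXCL1, CXCL2, CXCL3 and CXCL8 are genes that the study picked for quantitative PCR, so the count is no independent evidence. CXCL1, CXCL2 and CXCL3 are also close paralogs, and fragments could be split among them. CCL28 was the only member higher by this rule, with 1.83 and 2.35 FPKM against 0.839 and 1.25. The median log2 difference of the list was -1.06, and 0.01 over all genes analysed. With KDM5C-KD1 alone the median was -0.82 and 4 genes met the rule, and with KDM5C-KD2 alone the median was -1.46. Of 11 interleukin and colony-stimulating factor genes only IL6 met the rule, and the median was -0.16. IL1B was at 9.44 and 3.08 against 13.8 and 11.6 FPKM, and CSF2 at 15.9 and 4.46 against 25.6 and 19.4. These genes did not overlap and passed the ratio of 1.5, but missed the rule on its unadjusted p. IL11 and IL18 lay the other way without overlap, IL11 at 90.1 and 128.2 against 86.3 and 72.0 FPKM.

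NF-kB genes gave a similar count. Of 18 analysed regulators and targets of NF-kB, the transcription factor of inflammatory signalling, 7 met the 1.5-fold rule as lower in KDM5C-KD (2.29% of all genes) and none as higher, with a median log2 difference of -0.68. The subunit gene NFKB2 was at 32.6 and 22.5 against 49.6 and 45.4 FPKM. The adhesion molecule ICAM1 was at 54.7 and 43.5 against 87.1 and 92.7, and the complement component C3 at 6.76 and 7.52 against 11.9 and 19.1. The others were SOD2, TNFAIP2, BCL3 and LCN2. NFKB1, NFKBIA and TNFAIP3, which are also targets of the pathway, overlapped between the groups. Without KDM5C-KD2, 4 of the 18 met the rule and the median was -0.29, and without KDM5C-KD1, 11 met it.

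**Figure D3:**
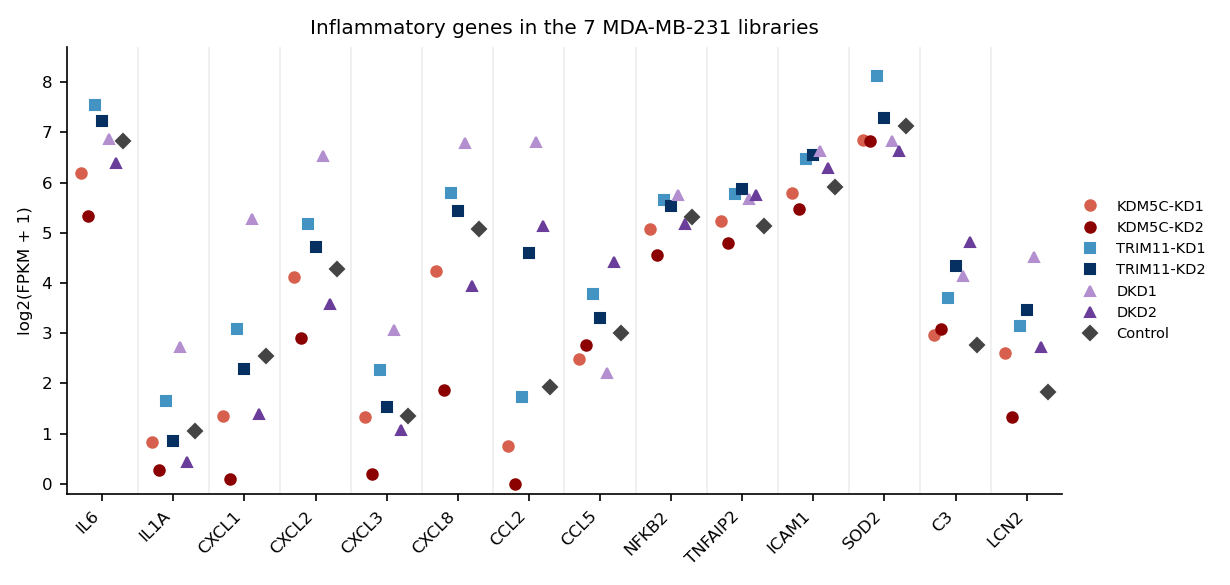
log2(FPKM + 1) of 14 inflammatory genes (horizontal axis) in the 7 MDA-MB-231 libraries, 1 point per library, with circles for KDM5C-KD, squares for TRIM11-KD, triangles for DKD and a diamond for Control. For IL6, CXCL8, CXCL1 and CXCL2 both circles are below both squares, and DKD1 and DKD2 are far apart for the CXC genes.

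Interferon and antigen presentation genes lay lower in KDM5C-KD by smaller amounts. Of 36 analysed interferon response genes 8 met the 1.5-fold rule as lower, against 2.29% of all genes. They were IFIT1, IFIT2, IFIT3, MX2, OAS2, DDX58, IFIH1 and HERC5. OAS1, which makes the activator of RNase L, was the 1 member higher, with 5.54 and 10.5 FPKM against 4.12 and 3.99. IFIT2 was at 15.4 and 15.1 against 34.5 and 23.3 FPKM, and the RNA sensor IFIH1 at 2.94 and 2.63 against 5.31 and 5.54. The abundant members ISG15, IFITM3 and BST2 overlapped between the groups. The median of the list was -0.22. Of 20 antigen presentation genes 5 met the rule as lower (again 2.29% of all genes) and none as higher. Among these were HLA-B, the peptide transporter TAP1 and NLRC5, an activator of class I genes. HLA-B was at 148.2 and 78.1 FPKM against 237 and 208. HLA genes share sequence, so fragments can be split among them. Without KDM5C-KD2, 5 interferon genes and 1 antigen presentation gene met the rule as lower, and without KDM5C-KD1, 7 and 8.

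Cancer-testis antigens, germline genes that many tumors express, were higher in KDM5C-KD, mainly in 1 line. Of 32 on the list 10 were analysed, and 5 met the 1.5-fold rule as higher (3.2% of all genes), namely MAGEA3, MAGEA6, PAGE1, SSX1 and CSAG1. SSX1 was at 8.94 and 36.6 FPKM against 4.95 and 1.71, and PAGE1, which met the 2-fold rule and passed the filter only through KDM5C-KD, at 1.38 and 7.81 against 0.403 and 0.126. MAGEA3, at 6.38 and 24.8 against 4.23 and 2.15, is nearly identical to MAGEA6. KDM5C-KD2 was the highest library for each of these 5. The median log2 difference was 1.40, and it was 0.62 with KDM5C-KD1 alone and 2.59 with KDM5C-KD2 alone. Without KDM5C-KD2, 1 of the 10 met the rule. MAGEC2 and XAGE1B show that such genes also vary between TRIM11-KD lines, with XAGE1B at 0.776 FPKM in TRIM11-KD1 and 27.7 in TRIM11-KD2.

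Of 24 analysed members of a list of epithelial and luminal genes, 5 met the 1.5-fold rule as higher in KDM5C-KD (3.2% of all genes) and 1 as lower. PKP3 and the membrane protease ST14 (2.74 and 3.77 FPKM against 1.20 and 0.277) met the 2-fold rule, ST14 passing the filter only through KDM5C-KD. EPCAM was at 10.3 and 12.2 against 4.999 and 6.768 FPKM, CLDN1 at 8.83 and 6.52 against 4.83 and 3.98, and CLDN3 at 8.159 and 4.799 against 3.08 and 3.71. The same number, 5, met the rule without KDM5C-KD2. The lower member was EHF, an epithelial ETS factor, with 12.8 and 3.20 FPKM against 22.6 and 16.3. CDH1, the epithelial cadherin of adherens junctions, also lay lower without overlap, at 1.04 and 0.819 against 1.98 and 1.19 FPKM. It passed the ratio of 1.5 but missed the rule on its unadjusted p. The median of the list was 0.20.

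Genes of migration and adhesion were divided. Of 36 analysed 3 met the 1.5-fold rule as higher in KDM5C-KD (3.2% of all genes) and 4 as lower (2.29%), and the median was 0.00. The counts were 3 and 3 without KDM5C-KD2 and 6 and 10 without KDM5C-KD1. MCAM, an adhesion molecule of the immunoglobulin family that the study followed, was at 39.3 and 76.6 FPKM against 24.2 and 20.4. Its log2 difference was 1.27 (standard error 0.31), and its smallest ratio between libraries was 1.63. The study picked MCAM among migration genes that its RNA-Seq showed higher with KDM5C knockdown, so this direction is no independent evidence. MYLK, the myosin light chain kinase, was at 80.9 and 119.9 against 52.9 and 50.3 FPKM, and the protease-activated receptor F2RL1 at 103.1 and 243 against 69.9 and 48.8. The lower members were ICAM1, ZEB1, LOX and THBS1, the last at 721 and 506 against 1087 and 1499 FPKM. Among 5 metallothioneins, which bind zinc and copper, MT1A and MT1E met the rule as higher (3.2% of all genes), with MT1E at 45.6 and 92.0 against 13.5 and 25.8 FPKM, while MT1F and MT1X overlapped between the groups.

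**Figure D4:**
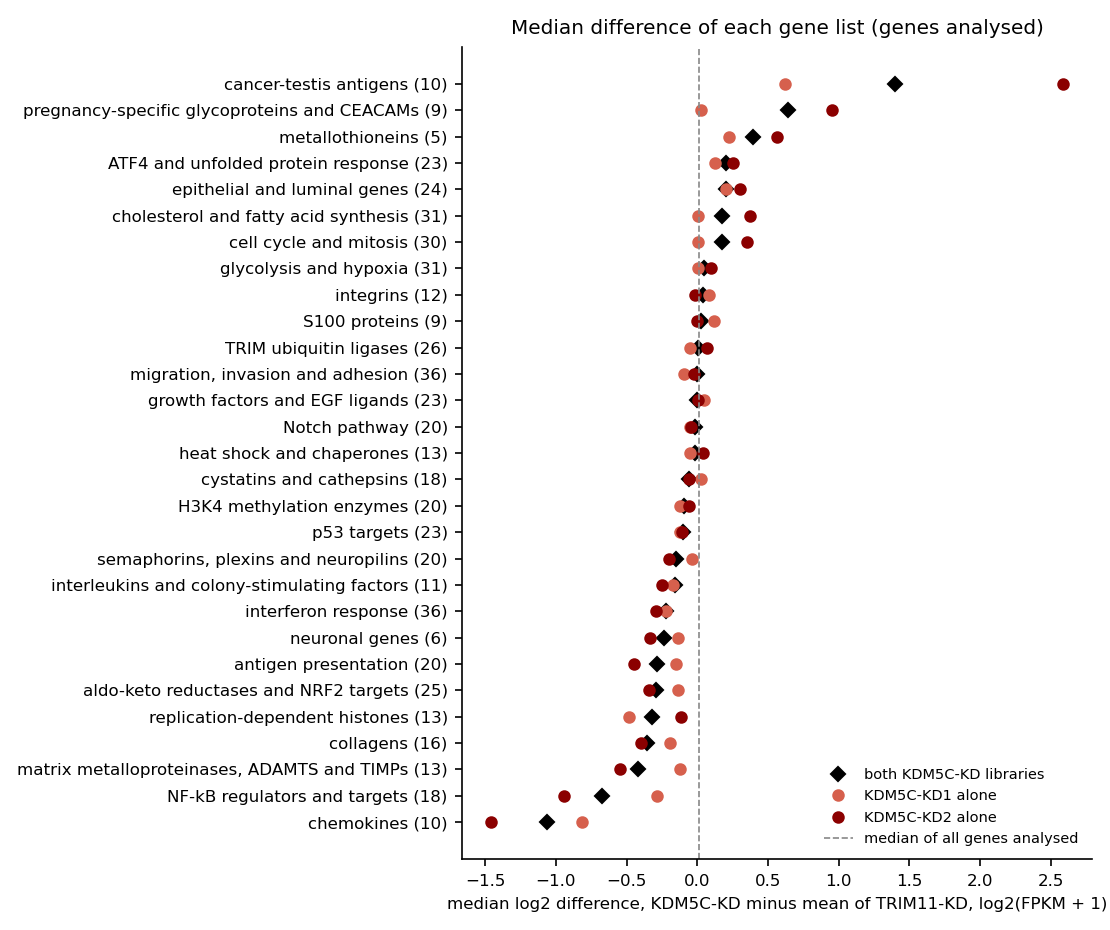
Median log2 difference of each gene list with at least 5 genes analysed (number in brackets), KDM5C-KD minus the mean of TRIM11-KD on log2(FPKM + 1), for both KDM5C-KD libraries (diamonds) and for each alone (circles). Chemokines (-1.06) and NF-kB genes (-0.68) are lowest and cancer-testis antigens (1.40) highest, while the dashed median of all genes is 0.01, and KDM5C-KD2 is the farther circle in each of these lists.

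The libraries left out of the comparison were placed beside the 2-fold genes, small RNAs apart, by the middle of the gap between the groups on log2(FPKM + 1). These genes were chosen for high values in 1 group, and many passed the filter only through it. A library that took no part in the choice is therefore more likely to lie on the low side. The placement is a description, and which knockdown moved a gene was not tested. For the 48 genes higher in KDM5C-KD, Control lay on the side of TRIM11-KD in 45 and on the side of KDM5C-KD in 3, SLAMF7 and BATF among them. Both DKD lines, which carry KDM5C guide 2, lay on the TRIM11-KD side in 29 genes and on the KDM5C-KD side in 8, and were divided in 11. PEG10 was at 22.9 and 23.2 FPKM in the DKD lines and at 24.7 in Control, all on the side of TRIM11-KD. CRABP2 (8.99 and 7.31 in DKD, 2.99 in Control), S100A2 and PKP3 were among the 8 in which DKD stayed with KDM5C-KD.

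For the 25 genes higher in TRIM11-KD the Control library was divided, with 14 on the TRIM11-KD side and 11 on the KDM5C-KD side. Both DKD lines lay on the TRIM11-KD side in 9 genes and on the KDM5C-KD side in 6, and the lines differed in 10. AKR1C3 was at 77.6 and 85.6 FPKM in DKD, near TRIM11-KD, and at 29.5 in Control, near KDM5C-KD1. TXNIP was at 95.7 in Control and at 52.4 and 108.3 in DKD, so that only the TRIM11-KD libraries were high. IL6 was at 113.2 in Control, between the groups. The DKD lines were far apart for CXCL8, at 110.1 in DKD1 and 14.4 in DKD2, and for CXCL1, at 37.5 and 1.63. CCL2 was higher in both DKD lines (111.7 and 34.2 FPKM) than in any single knockdown.

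**Figure D5:**
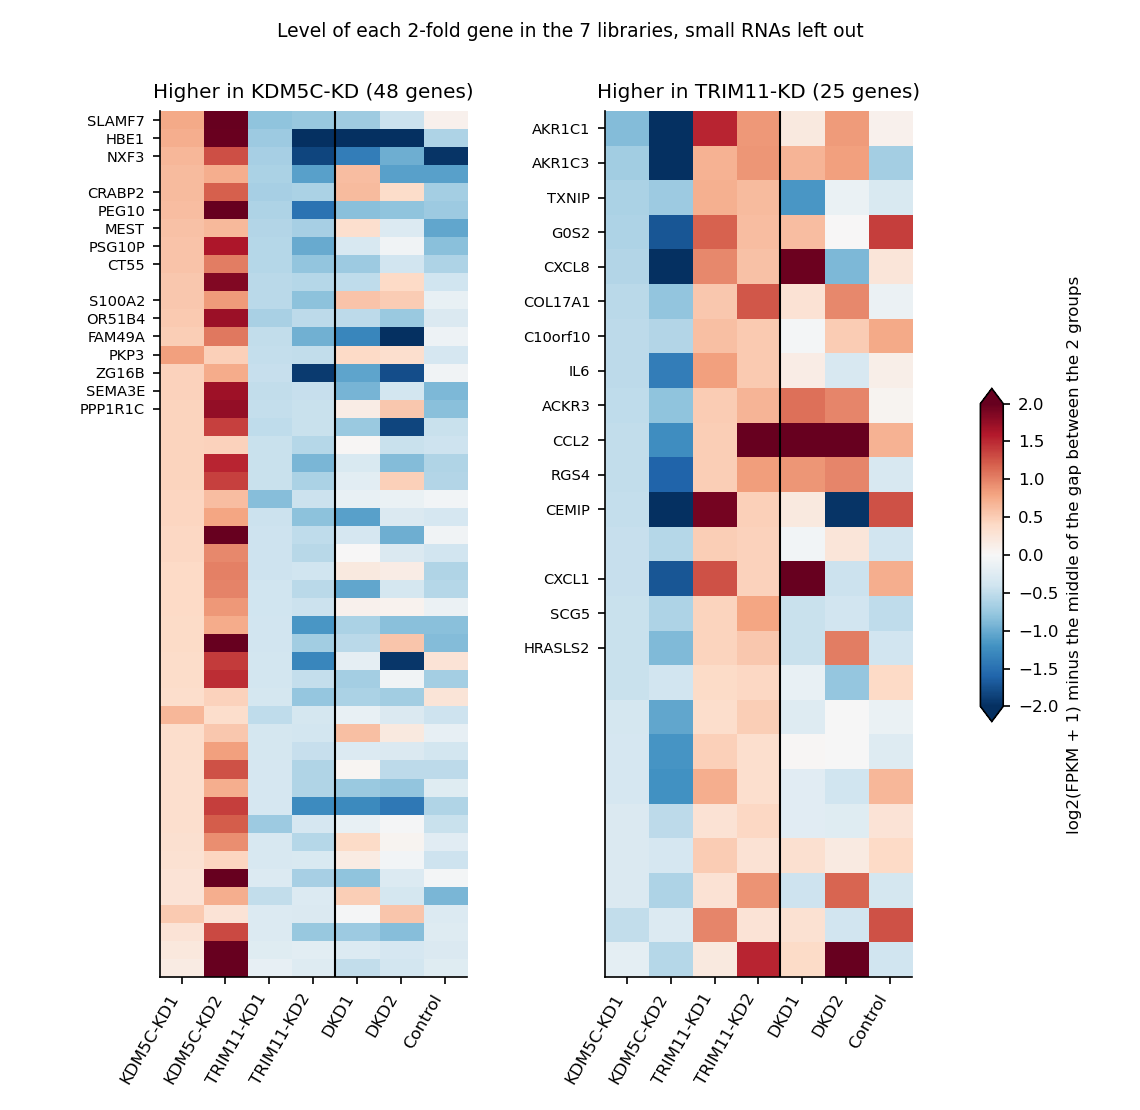
Level of each 2-fold gene in the 7 libraries as log2(FPKM + 1) minus the middle of the gap between the groups, red above and blue below it, with 1 row per gene and the 15 genes of each direction with the largest gap labelled. In the left panel Control is on the blue side in 45 of 48 genes, and in the right panel on the red side in 14 of 25. The genes were chosen for high values in 1 of the 2 groups, so the placement of the other libraries is a description only.

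By position, 63 of the 80 2-fold genes matched a single hg19 gene, 40 of the higher and 23 of the lower. Of the 40, 5 (12.5%) lie on the X chromosome, namely NXF3, CT55, LINC01204, PAGE1 and MAGEA11. Of the 23, 0 lie there, and of the 10792 analysed genes with a matched position 355 (3.29%) do. CT55, PAGE1 and MAGEA11 were under 1 FPKM in both TRIM11-KD libraries and passed the filter only through KDM5C-KD, MAGEA11 only through KDM5C-KD2 (9.01 FPKM against 0.581 in KDM5C-KD1). All 8 pairs of 2-fold genes that lie less than 1 Mb apart shared a direction. Besides AKR1C1 with AKR1C3 and HBE1 with OR51B4, these included CXCL8 with CXCL1 at 126 kb and S100A2 with NPR1 at 111 kb. Not all pairs are independent measurements. LINC01088 and NAA11 overlap in the annotation, as do HBE1 and OR51B4, and AKR1C1 and AKR1C3 are paralogs. CXCL8 and CXCL1 are both CXC chemokines that the study picked. How many pairs would share a direction by chance was not tested. Within 100 kb of the 2-fold genes lay 133 other analysed genes, of which 13 met the 1.5-fold rule, 10 in the direction of their 2-fold neighbour and 3 in the opposite one. Over all genes analysed, 3.2% met this rule as higher and 2.29% as lower. Among the 10, OR51B5, SGCE and RGMB overlap the annotated span of their 2-fold neighbour, and the libraries keep no strand. DUS3L lies 86 bases from PRR22, so this pair may not be fully separated either. The PSG genes near PSG10P were divided. PSG1, at 10845 bases, was at 32.3 and 42.3 FPKM against 17.4 and 10.3, and PSG6, at 46467 bases, lay the other way with 8.89 and 5.92 against 12.48 and 16.01. PSG genes are close copies whose fragments can be split. UQCC1 (94.0 and 144 against 65.7 and 56.5 FPKM) was higher in KDM5C-KD, and its neighbour GDF5 lower.

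The 3 genes that passed the adjusted test were small nucleolar RNAs, which guide the modification of ribosomal RNA. SNORA63 is listed at 0 in both KDM5C-KD libraries and was at 38.3 and 28.3 FPKM in the TRIM11-KD libraries (limma, adjusted p = 0.00700). SNORA4 (30.6 and 69.1 FPKM in TRIM11-KD) and SNORD10 (12.6 and 20.4) are also listed at 0 in KDM5C-KD, each with an adjusted p of 0.0429 (limma). In Control, SNORA63 and SNORA4 are listed at 0 and SNORD10 was at 14.7. In DKD1 all 3 are listed at 0, while in DKD2 SNORA63 was at 37.3 and SNORD10 at 13.1 FPKM and SNORA4 is listed at 0. SNORD97 went the other way, with 16.7 and 39.0 FPKM in KDM5C-KD and a listing at 0 in the 5 other libraries (adjusted p = 0.092). The libraries were poly(A)-selected, and mature small nucleolar RNAs have no poly(A) tail. At their short lengths a given FPKM stands for few fragments, and the part of this in the result was not tested. None of the other genes passed the adjusted test.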

How the data were processed

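RNA-Seq was done on poly(A)-selected, non-directional libraries. Reads were trimmed and aligned to hg19 with HISAT2 2.1.0. The authors computed FPKM with Cufflinks at default parameters and deposited 1 FPKM table with 1 column per human library. The submitters' processing notes also name Bowtie 0.12.2, without a role. FPKM keep no read numbers, so no counting error is given.

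Of 26006 entries with 24548 symbols, 25 symbols written as dates were dropped, and for 441 symbols with several entries the entry with the highest mean was kept. Genes with a mean of at least 1 FPKM over the 4 libraries were analysed. The 2-fold rule used FPKM as deposited and asked for values above 0 in both higher lines. Tests used limma 3.58.1 in R 4.3.3 (lmFit, eBayes with a trend) on log2(FPKM + 1), with Benjamini-Hochberg adjustment over all 11767 genes. Fold changes on this scale understate those of weak genes. The limma steps were tested on simulated data. Other steps used Python 3.11.15, numpy 2.4.6, pandas 2.3.3 and matplotlib 3.10.9. Gene positions are from GENCODE on hg19 and promoters from RefSeq on GRCh38.p14, the first entry of each symbol, matched by symbol.

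Named were KDM5C, TRIM11, the 15 genes of each direction with the largest gap on log2(FPKM + 1) under the 2-fold rule (ribosomal protein genes, small RNAs, LOC and LINC symbols passed over), list members that met the rule, and the genes of the study's quantitative PCR. Other list members and neighbours were named after their values were seen. The members, rules and gene lists, written from general knowledge, were chosen with earlier results of these data known. Lists were described by counts and medians. P-values measure the spread between lines with different guides, which may come from the guides or from the cultures. The alternatives were other filters, folds and pseudocounts, a ratio of means, scaling by median ratios, no trend, the DKD and Control libraries in the fit, the guide number as a block, each library left out, and, after seeing the data, no small RNAs. The mouse tumor data and the ChIP-Seq data were not used here, and some list members and 2-fold genes are not reported by name.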

Additional observations from a re-analysis of the deposited data

How the results depend on the processing

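The direction of all 37 named genes with a test stayed the same under every alternative fit. For those that met the 2-fold rule, leaving out a library could not turn it, since both lines of one group lay above both of the other. The fits without a trend, with more libraries or with the guide number as a block keep the log2 difference of the main fit. This unchanged direction is therefore no test of the genes. Against the adjusted threshold, 462 values stayed on the same side. In 5 cases a gene passed it: SLAMF7 (log2 difference 2.90), AKR1C1 (-4.57), AKR1C3 (-5.89) and CXCL8 (-3.74) without KDM5C-KD1, and G0S2 (-2.05) with the guide number as a block, with adjusted p between 0.0134 and 0.0484 (limma). Genes that met the 2-fold rule numbered 49 higher and 31 lower in KDM5C-KD. With a mean of at least 5 FPKM they were 12 and 13, with any mean above 0 they were 281 and 358, with a pseudocount of 1 they were 13 and 14, at 1.5-fold 155 and 110, at 3-fold 18 and 7, and by the ratio of means alone 246 and 178. Leaving out 1 library gave 80 to 270 and 44 to 355, all above the main counts, since fewer libraries must then separate. The counts were highest without KDM5C-KD1 and lowest without KDM5C-KD2, and were 204 and 99 without TRIM11-KD1 and 115 and 101 without TRIM11-KD2. By the 1.5-fold and p rule, 376 higher and 270 lower became 224 and 168 at 5 FPKM, and 454 were lower with any mean above 0. Leaving out 1 library gave 239 to 785 and 136 to 796, again lowest without KDM5C-KD2 and highest without KDM5C-KD1. The 3 adjusted calls became 0 with any mean above 0 and without small RNAs, 1 without a trend, with 6 or with 7 libraries, and 8 to 15 with 1 library left out, where the lone line of a group is assumed to vary like the other group. The cause of these changes was not tested.

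The guide numbers pair nothing by the labels, and deviations of same-numbered lines from their group means correlated at 0.08. With the guide number as a replicate block, 8 genes had an adjusted p under 0.05, and the 1.5-fold rule gave 444 higher and 363 lower genes. No library of the 4 has a known depth, and 2 lines a group limit every count.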

Other observations

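Several lists lay higher in KDM5C-KD by small amounts that few single genes carried. Of 30 analysed cell cycle and mitosis genes 24 were higher on average, with a median log2 difference of 0.17 and 1 gene past the 1.5-fold rule, and the median was 0.35 with KDM5C-KD2 alone and 0.01 with KDM5C-KD1 alone. Of 31 genes of cholesterol and fatty acid synthesis 24 were higher (median 0.17), none past the rule, with medians of 0.37 and 0.00 for KDM5C-KD2 and KDM5C-KD1. Of 23 ATF4 and unfolded protein response genes 20 were higher (median 0.20), with 0.25 and 0.12 for the same lines. Over all genes analysed, 6098 of 11767 were higher.

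Of 13 analysed replication-dependent histone genes 5 met the 1.5-fold rule as lower in KDM5C-KD (2.29% of all genes) and none as higher, and 2 met it without KDM5C-KD2. HIST1H2BC was at 6.74 and 5.16 FPKM against 16.01 and 13.08, and HIST1H1C at 51.1 and 38.4 against 92.3 and 62.5. Most mRNAs of this class have no poly(A) tail.

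Of 16 collagen genes 1 met the rule as lower (median -0.36), and of 13 matrix metalloproteinases, ADAMTS and TIMPs 2 as lower and 1 as higher (median -0.42), beside 2.29% lower and 3.2% higher over all genes. Medians lay within 0.15 of 0 on the log2 scale for integrins, growth factors, Notch genes, p53 targets, glycolysis genes, chaperones, cystatins with cathepsins, S100 proteins, semaphorins and TRIM ligases. Single members lay farther out. Log2 differences ran from -3.80 to 0.60 in the cystatins with cathepsins and from -2.13 to 0.47 in the p53 targets. By the 1.5-fold rule, 1 of 18 was higher and 0 lower in the former, and 0 higher and 2 of 23 lower in the latter.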
